A study of Mus musculus with 2 samples.

Results

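The 10 genes described here code for the ligands and receptors of the vascular endothelial growth factor (VEGF) and angiopoietin systems, and were compared between brown preadipocytes at D0 and differentiated brown adipocytes at D7. They were taken by symbol from the deposited table of FPKM values (fragments per length of transcript and per size of library). All 10 were found among the 23361 genes with values, and all 10 were above 0 in both libraries. Both stages came from preadipocytes of the interscapular brown adipose tissue of newborn C57BL/6 mice, with 1 RNA-Seq library per stage. Per the labels, both stages shared a differentiation medium in which cells were plated 4 days ahead of induction, and which held T3 at 1 nM and insulin at 0.1 μM. D7 cells additionally had 2 days of induction with indomethacin at 0.125 mM, dexamethasone at 2 μg/ml and IBMX at 0.5 mM, then that medium alone. The labels call the cells primary cultures, whereas the methods of the paper give the substrain as C57BL/6J and describe immortalization with large T and another insulin and dexamethasone concentration. Pups of either sex were used, and whether their cells were pooled was not stated. No difference below has a replicate check, so no p-value is given and the comparison is between 2 libraries.

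VEGF ligands are secreted growth factors that act through receptor tyrosine kinases. VEGFA is the main ligand of KDR (VEGFR-2), the receptor that drives growth and migration of endothelial cells, and also binds FLT1 (VEGFR-1), which holds ligand with high affinity and signals weakly. VEGFB binds FLT1, while VEGFC and VEGFD (the product of Figf) bind FLT4 (VEGFR-3), the receptor of lymphatic endothelium. Angiopoietin 1 activates TEK (TIE2) and steadies vessels, and angiopoietin 2 acts on TEK as an antagonist or a weak agonist depending on context. Adipocytes are known as a source of VEGFA in adipose tissue, and brown fat is densely vascularized.

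The VEGF ligands share a cystine-knot signature, which is shown to make the likeness within the family visible. In each of them the stretch was coded within exon 3 of 7 of the longest GENCODE M21 transcript that holds it, on mm10. It lies at chr17:46025401-46025439 (minus strand) in Vegfa, chr19:6986344-6986382 (minus) in Vegfb, chr8:54159391-54159429 (plus) in Vegfc and chrX:164391700-164391738 (plus) in Figf. The 39 coding bases are given 5′ to 3′, and capitals mark the 4 codons for cysteine.
Vegfa: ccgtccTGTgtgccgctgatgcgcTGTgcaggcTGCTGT
Vegfb: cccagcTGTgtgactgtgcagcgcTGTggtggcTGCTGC
Vegfc: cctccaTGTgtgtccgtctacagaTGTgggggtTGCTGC
Figf: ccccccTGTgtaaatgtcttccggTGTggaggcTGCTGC
The stretch was found by a pattern of amino acids that fixes the cysteines and some other residues. Part of the identity between ligands was therefore set by the search. Vegfc and Figf were identical at 28 of the 39 bases (71.8%), as were Vegfa and Vegfb. Vegfa and Vegfc were identical at 23 (59.0%), and Vegfb and Figf at 29 (74.4%), so these 39 bases alone did not separate the FLT4 ligands from the others.

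FPKM values were relative to about 21472000 fragments at D0 and 18266000 at D7. These sizes were recovered from 646 single-exon genes, in which all low values (89 at D0 and 97 at D7) came out as whole fragments within 0.1. Numbers of fragments in the 10 genes, which have several exons, are approximate. All intervals are exact 95% intervals on these fragments, cover counting error only and leave out the spread between cultures. Of the 10 adipocyte markers, 7 were above 0 in both libraries and all 7 were higher at D7, and the other 3 (Ucp1, Cidea and Elovl3) were listed at 0 at D0 and had FPKM of 4.57, 24.4 and 34.2 at D7.

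All 6 ligands had a higher FPKM at D7, 3 of them by at least 2-fold, while of the 4 receptors Kdr and Tek were higher and Flt4 was lower by that much. A gene was called higher at D7 at a ratio of FPKM (D7 over D0) of at least 2 and lower at 0.5 or less. This is the fold that the study's methods use, applied here to the deposited FPKM without a floor or rescaling. By this rule 5 of the 10 genes were higher (Angpt1, Tek, Vegfc, Figf and Kdr), against a background of 18.5% of the 14986 genes above 0 in both libraries. Only Flt4 of the 10 was lower, against a background of 13.2%. The other 4 (Vegfb, Angpt2, Vegfa and Flt1) lay between these limits. The calls depend on the scaling. With FPKM floored at 0.01 and each library divided by its median, 3 of the 10 were higher (Angpt1, Tek and Vegfc). The background was then 12.1% higher and 16.4% lower. These 2 shares are of all 23361 genes with values, those listed at 0 included. They are therefore not on the same base as the 18.5% and 13.2%. The median log2 ratio of the 10 genes was 1.03, while that of all 14986 genes was 0.015. In such a bulk measure, a different number of cells of one type and a different amount of RNA per cell cannot be told apart.

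**Figure D1:**
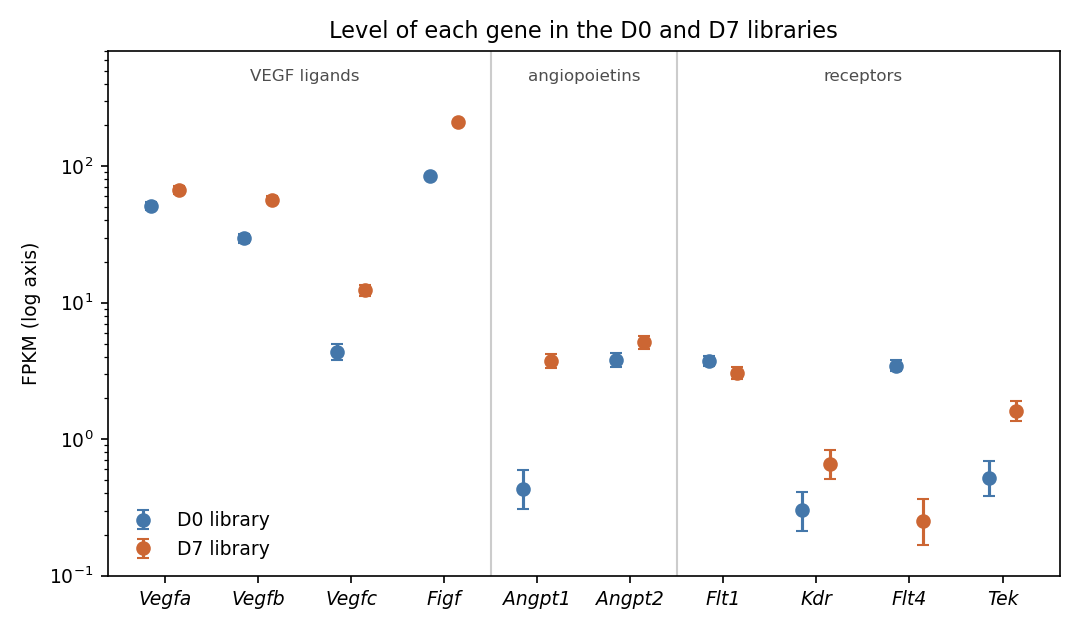
FPKM of the 10 genes (log axis) in the D0 library (blue) and the D7 library (orange), with 1 library per stage and bars for the exact 95% Poisson interval on recovered fragments. All 6 ligand points are higher at D7, and Flt4 shows the only large drop, from 3.44 to 0.252.

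Figf (ENSMUSG00000031380.10, mm10 chrX:164373378-164402650, plus strand, annotated as Vegfd) was the most abundant of the 10 genes in both libraries. The D0 library gave it 84.3 FPKM and the D7 library 210.005 FPKM, from about 3386 and 7162 fragments. The ratio was 2.49 (95% interval 2.39 to 2.60), and it was 1.95, under the threshold, when every FPKM was floored at 0.01 and each library was divided by its median. At D7 it ranked 413 of the 23361 genes by FPKM, after rank 971 at D0. Among genes above 0 it stood at percentile 93.8 at D0 and 97.4 at D7.

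Vegfc (ENSMUSG00000031520.6, chr8:54077606-54187096, plus strand), the other FLT4 ligand, stood at 4.38 FPKM in the D0 library and at 12.3 in the D7 library. This was a ratio of 2.81 (2.40 to 3.32) on about 213 and 510 fragments. Figf stood above Vegfc by 19.3 times at D0 (16.8 to 22.3) and by 17.1 times at D7 (15.6 to 18.7). Both FLT4 ligands thus differed between the libraries by similar ratios at very unequal levels.

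Vegfa (ENSMUSG00000023951.17, chr17:46016993-46032369, minus strand), the main ligand of KDR, stood at 50.7 FPKM in the D0 library and 67.0 in the D7 library. The ratio, 1.32 (1.20 to 1.45), differed from 1 beyond counting error but was 1.03 after the floor and division by the library median, so the size of its difference rests on the scaling. The table gives 1 value for Vegfa, of which 13 transcripts are annotated, and splice forms of different binding to the matrix were not resolved. The named transcript is 975 bases long in the annotation and gave about 867 and 971 fragments, and the longest, of 3451 bases, gave 3565 and 4002.

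Vegfb (ENSMUSG00000024962.13, chr19:6982473-6987651, minus strand), the FLT1 ligand associated with fatty acid uptake across endothelium, stood at 29.7 FPKM in the D0 library and 56.7 in the D7 library. The ratio, 1.91 (1.74 to 2.10), was just short of the threshold of 2, which its interval included. It was 1.495 after the floor and division by the library median. At D0 Vegfa was 1.71 times as high as Vegfb (1.54 to 1.89), and at D7 1.18 times (1.08 to 1.29). The level of Vegfb was therefore nearer to that of Vegfa in the D7 library.

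Summed over the 4 VEGF ligands, FPKM was 169 at D0 and 346 at D7, 2.05 times as high. Figf accounted for 49.9% of this sum at D0 and 60.7% at D7, and Vegfa for 30% and 19.4%. Vegfb held 17.6% and 16.4%, and Vegfc 2.59% and 3.56%. These shares within a library do not depend on the scaling between libraries, but the share of Vegfa does depend on its transcript length.

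**Figure D2:**
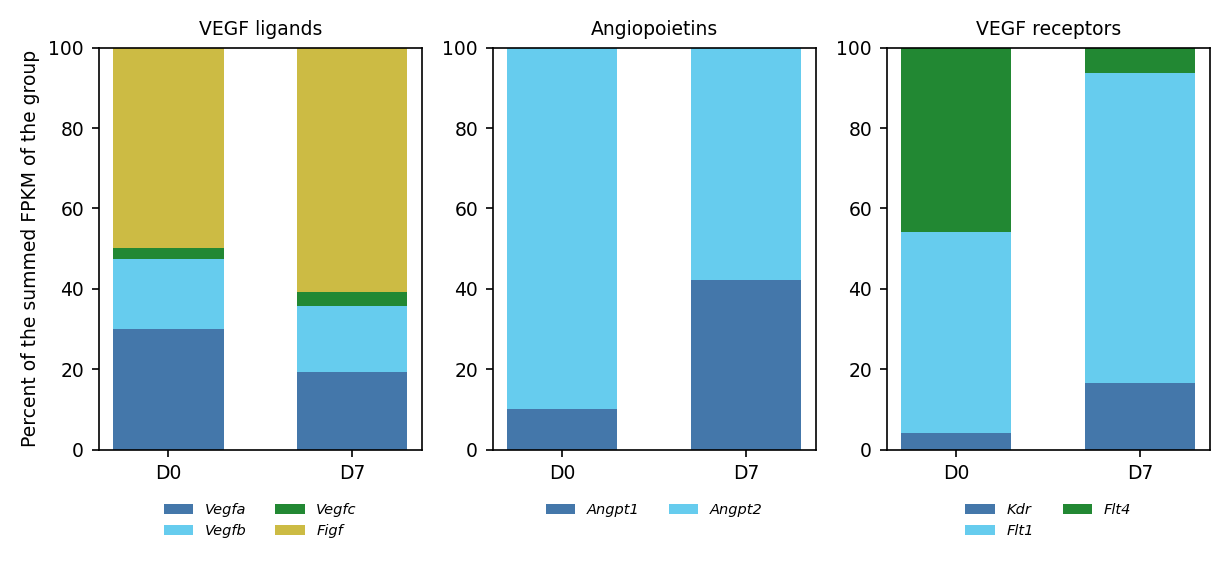
Percent of the summed FPKM of the 4 VEGF ligands, the 2 angiopoietins and the 3 VEGF receptors taken by each gene in the D0 and D7 libraries. Figf takes 49.9% of the ligands at D0 and 60.7% at D7, Angpt1 takes 10.1% and 42.3% of the angiopoietins, and Flt4 takes 45.9% and 6.36% of the VEGF receptors.

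Angpt1 (ENSMUSG00000022309.9, chr15:42424723-42676977, minus strand) had the highest ratio of the 10 genes. It was at 0.430 FPKM in preadipocytes and at 3.77 in adipocytes, from about 38 and 281 fragments. The ratio of 8.76 (6.18 to 12.6) was matched or exceeded by 526 of the 14986 genes (3.51%). An annotated antisense gene, Gm17473, shares 737 exonic bases with Angpt1. The methods of the paper describe degrading the second cDNA strand with UNG, but whether strand was used in counting was not stated. With 1 added to every FPKM the ratio was 3.33.

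Angpt2 (ENSMUSG00000031465.6, chr8:18690263-18741562, minus strand), the context-dependent TEK ligand, was at 3.83 FPKM in preadipocytes and at 5.14 in adipocytes. Its ratio was 1.34 (1.14 to 1.58), or 1.05 after the floor and division by the library median. The deposited locus spans chr8:18595172-18803188 and takes in Mcph1, which lies over Angpt2 on the opposite strand without shared exonic bases and had FPKM of 1.78 and 3.04. Angpt2 exceeded Angpt1 by 8.90 times at D0 (6.28 to 12.7) and by 1.36 times at D7 (1.16 to 1.60). Angpt1 made up 10.1% of the summed FPKM of the 2 angiopoietins at D0 and 42.3% at D7.

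Tek (ENSMUSG00000006386.15, chr4:94739289-94874976, plus strand), the angiopoietin receptor, was higher at D7 as well. It was at 0.520 FPKM in preadipocytes and at 1.62 in adipocytes, from about 50 and 132 fragments. The ratio was 3.11 (2.23 to 4.39), but 1.72 with 1 added to every FPKM. Its partner receptor Tie1 was listed at 0 in both libraries.

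Flt4 (ENSMUSG00000020357.3, chr11:49609263-49652739, plus strand), the receptor of VEGFC and VEGFD, showed the lowest ratio of the 10 genes. Preadipocytes had 3.44 FPKM of it and adipocytes 0.252, from about 449 and 28 fragments. It was 13.7-fold lower at D7, a ratio of 0.0732 (0.0482 to 0.107). Only 55 of the 14986 genes (0.367%) had a ratio that low or lower. Over the pseudocounts and scalings tried the ratio stayed between 0.0573 and 0.282, so its direction did not depend on them. The FPKM of Figf was 24.5 times that of Flt4 at D0 and 835 times at D7, with higher values of both its ligands beside a lower value of the receptor.

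Flt1 (ENSMUSG00000029648.13, chr5:147561604-147726011, minus strand) was the most abundant receptor, with 3.75 FPKM in preadipocytes and 3.05 in adipocytes. Its ratio of 0.814 (0.712 to 0.931) was below 1 and above 0.5. It was 0.638 after the floor and division by the library median. Soluble splice forms of FLT1, which bind ligand without signalling, were not resolved by a single value per gene. Kdr (ENSMUSG00000062960.10, chr5:75932827-75978458, minus strand) was low throughout, with 0.3003 FPKM in preadipocytes and 0.655 in adipocytes. Its ratio of 2.18 (1.45 to 3.36) rested on about 37 and 69 fragments and was 1.27 with 1 added to every FPKM. Flt1 exceeded Kdr by 12.5 times at D0 (8.94 to 17.9) and by 4.66 times at D7 (3.58 to 6.08).

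The summed FPKM of the 3 VEGF receptors was 7.49 in preadipocytes and 3.96 in adipocytes, a ratio of 0.529, opposite in direction to the sum of their ligands. Flt1 and Flt4 took nearly equal shares at D0, 50.1% and 45.9%, and the ratio of Flt1 to Flt4 of 1.09 (0.958 to 1.24) could not be separated from 1. At D7 Flt1 held 77.1%, Kdr 16.5% and Flt4 6.36%.

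**Figure D3:**
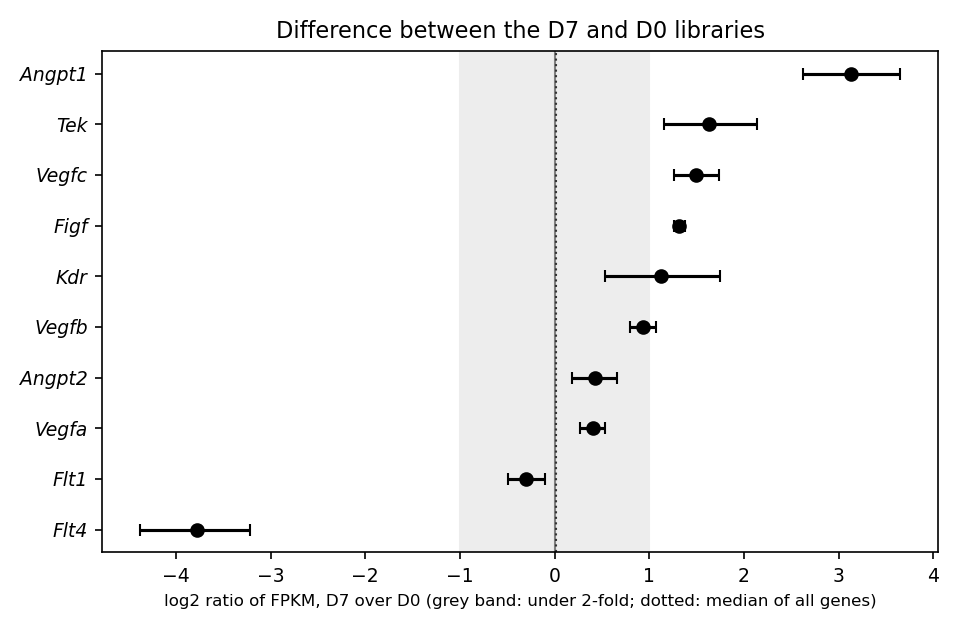
Log2 ratio of FPKM, D7 over D0, of each of the 10 genes, with exact 95% intervals on recovered fragments. The grey band spans ratios under 2-fold and the dotted line marks the median of all genes (0.015). Angpt1 lies at 3.13 and Flt4 at -3.77, at opposite ends.

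By level, the order at D0 was Figf, Vegfa, Vegfb, Vegfc, Angpt2, Flt1, Flt4, Tek, Angpt1 and Kdr. Intervals of neighbours overlapped among Vegfc, Angpt2, Flt1 and Flt4, and again among Tek, Angpt1 and Kdr, so the order of neighbours within these runs is not settled by counting. Farther apart, Vegfc exceeded Flt4 by 1.27 times (1.07 to 1.498) and Tek exceeded Kdr by 1.73 times (1.11 to 2.73). At D7 the order was Figf, Vegfa, Vegfb, Vegfc, Angpt2, Angpt1, Flt1, Tek, Kdr and Flt4. There only Angpt1 and Flt1 had overlapping intervals. Flt4 moved from the seventh to the last place.

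Other genes of the pathway were described from lists, by counts and by the median log2 ratio, beside the percentages of all genes given above. Of 12 further ligands, co-receptors and partners, 11 were above 0 in both libraries, 0 were higher and 7 were lower by at least 2-fold at D7, with a median log2 ratio of -1.22. Nrp1, a co-receptor of VEGFA and KDR, and Sdc4, a heparan sulphate proteoglycan, were the 2 genes of the list with a ratio above 1. Nrp1 stood at 39.7 FPKM in preadipocytes and 61.7 in adipocytes, a ratio of 1.55 (1.48 to 1.63). Nrp2, the co-receptor of VEGFC and VEGFD, had FPKM of 11.4 and 4.87, a ratio of 0.428 (0.379 to 0.484). Nrp2 was thus lower at D7, as Flt4 was.

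Angpt4, another TEK ligand, had FPKM of 5.62 and 0.366, a ratio of 0.0651 (0.0342 to 0.108), close to that of Flt4. Pgf, a ligand of FLT1, had FPKM of 1.05 and 0.618 on about 32 and 16 fragments, and its ratio of 0.589 (0.302 to 1.11) was not separated from 1. Of the integrin subunits, which bind matrix and work with these receptors, Itgb3 had a ratio of 0.208 (0.175 to 0.245), and Itgb1, the most abundant gene of this list, had FPKM of 451 and 299, a ratio of 0.663 (0.652 to 0.675). Sdc4 had a ratio of 1.34 (1.24 to 1.46).

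VEGFC and VEGFD are secreted as precursors and cut by proteases. Of 10 genes for this processing, 9 were above 0 in both libraries, 0 were higher and 3 were lower by at least 2-fold (Adamts14, Plat and Plau), with a median log2 ratio of -0.14. Adamts14 had FPKM of 6.77 and 1.498, a ratio of 0.221 (0.183 to 0.266), and Plat, tissue plasminogen activator, had a ratio of 0.260 (0.235 to 0.287). Ctsd, cathepsin D, was the most abundant, with FPKM of 981 and 1779 and a ratio of 1.81 (1.79 to 1.84). Pcsk5, a proprotein convertase, had a ratio of 1.29 (1.13 to 1.47).

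Of 22 genes of receptor signalling, 21 were above 0 in both libraries, 4 were higher and 1 was lower, with a median log2 ratio of -0.29. After the floor and division by the library median, 4 were higher and 5 lower, with a median of -0.64. Pik3r1, a regulatory subunit of phosphoinositide 3-kinase that also serves insulin signalling, had FPKM of 11.2 and 68.9, a ratio of 6.15 (5.83 to 6.48). Dok2, an adaptor that binds activated TEK and is known from blood cells, had FPKM of 0.212 and 1.78, a ratio of 8.41 (4.04 to 23.2) on about 7 and 53 fragments. Src had a ratio of 0.426 (0.389 to 0.467), and Klf2 of 0.511 (0.430 to 0.608). Hspb1, the most abundant of the list, had FPKM of 219 and 158.

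Hypoxia-inducible factors activate Vegfa when oxygen is low. Of 23 genes of this pathway, 22 were above 0 in both libraries, 6 were higher and 3 were lower, with a median log2 ratio of 0.13 that became -0.22 after the floor and division by the library median. Hif1a had FPKM of 102 and 34.8, a ratio of 0.342 (0.328 to 0.357). Epas1, which codes for HIF-2α, went the other way, with FPKM of 2.01 and 24.8 and a ratio of 12.4 (10.8 to 14.2). Hif1a and Epas1 therefore differed in opposite directions between the libraries. Hif3a, of the same list, was listed at 0 at D0 and had FPKM of 4.69 at D7, about 173 fragments. The part of these genes in the value of Vegfa was not tested.

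Egln3, a prolyl hydroxylase that marks these factors for decay, had a ratio of 5.26 (4.53 to 6.13), and Ldha, the most abundant of the list, had FPKM of 775 and 1155, a ratio of 1.49 (1.47 to 1.51). Car9 had a ratio of 0.406 (0.171 to 0.825) on about 30 and 10 fragments.

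PGC-1α and the receptor ERRα are known to induce Vegfa without low oxygen. All 7 genes of the PGC-1 and ERR list were higher at D7, with a median log2 ratio of 4.04, which was 2.00 with 1 added to every FPKM. With a pseudocount of 0.1, 6 were called higher, and with 1 added 5 were. Esrrb rested on about 3 and 11 fragments. The list also holds Pparg and Ppara, so it is not one of VEGF regulators only. Ppargc1a had FPKM of 0.0370, about 5 fragments, and 4.41, about 506 fragments, a ratio of 119 (50.7 to 368). Esrra had FPKM of 16.1 and 43.3, a ratio of 2.69 (2.46 to 2.94), and Esrrg a ratio of 6.33 (3.04 to 14.5). Vegfa, beside them, had a ratio of 1.32, and the part of these regulators in its value was not tested.

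Other secreted factors went both ways. Of 20 such genes, 19 were above 0 in both libraries, 7 were higher and 8 were lower, with a median log2 ratio of -0.09. Fgf1 had a ratio of 9.41 (7.22 to 12.5), with FPKM of 0.749 and 7.05, and Apln, coding for the endothelial growth factor apelin, of 7.73 (6.18 to 9.76), with FPKM of 1.41 and 10.9. Ctgf had FPKM of 513 and 109, a ratio of 0.212 (0.205 to 0.219), and Ereg had a ratio of 0.240 (0.158 to 0.355).

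Of 22 genes for inhibitors of angiogenesis, 21 were above 0 in both libraries, 6 were higher and 7 were lower, with a median log2 ratio of -0.51. Tnmd, coding for tenomodulin, had FPKM of 184 and 22.6, a ratio of 0.123 (0.111 to 0.135). Sparc, a matrix protein, was the most abundant by the mean of both libraries, with FPKM of 2802 and 2239. On the higher side stood Adipoq, the hormone adiponectin, which is foremost a marker of adipocytes (FPKM of 0.221 and 943), and Thbs4, with FPKM of 0.139 and 0.870. The list thus mixes matrix proteins with products of the adipocyte itself.

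**Figure D4:**
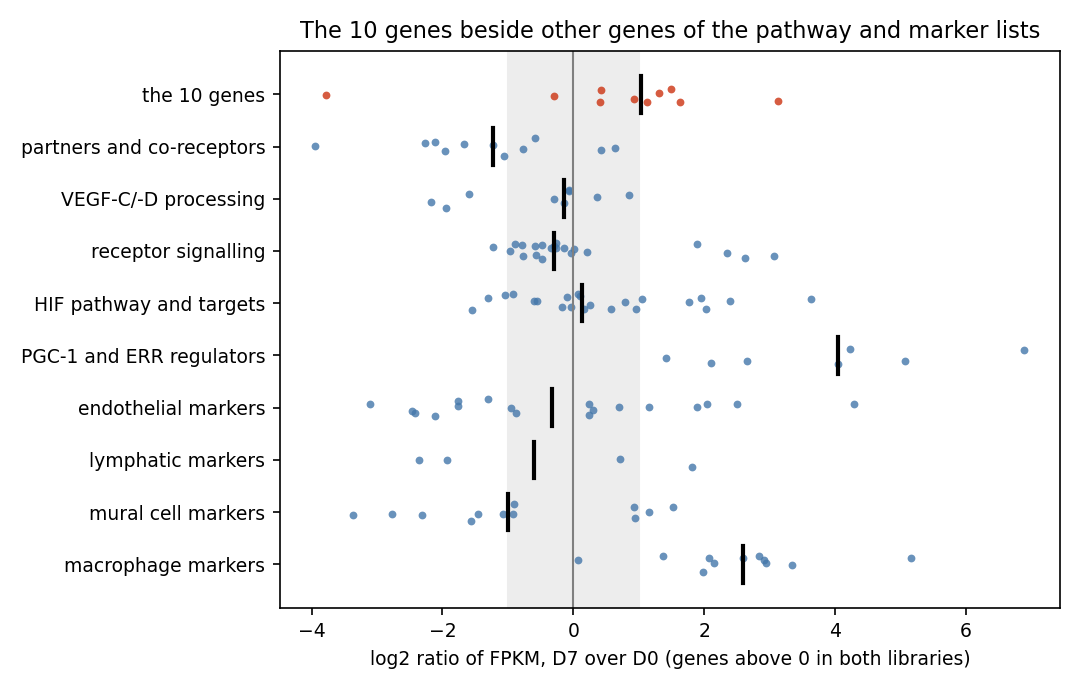
Log2 ratio of FPKM, D7 over D0, for the 10 genes (red) and for genes of other lists (blue) that were above 0 in both libraries; each point is a gene, black bars are medians, the grey band spans ratios under 2-fold, and vertical scatter within a row has no meaning. Medians run from -1.22 for partners and co-receptors to 4.04 for PGC-1 and ERR regulators, and that of the 10 genes is 1.03.

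The receptors studied here are best known from endothelial cells, so markers of endothelium were read beside them. Of 26 endothelial markers, 4 were listed at 0 in both libraries (Tie1, Cldn5, Robo4 and Sox17). Pecam1, the defining adhesion molecule of endothelium, had FPKM of 0.0152 and 0.0178, about 1 fragment in each library. Cdh5, coding for VE-cadherin, had FPKM of 0.159 and 0.0288, about 13 and 2 fragments, a ratio of 0.181 (0.0198 to 0.799). Pecam1 and Cdh5 were thus near 0 in both libraries, and most other genes of the list were low as well. The median FPKM of the 26 genes was 0.0958 at D0 and 0.0969 at D7. Only 5 of them at D0 and 6 at D7 had FPKM of at least 1.

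The endothelial list summed to 53.0 FPKM in preadipocytes and 28.9 in adipocytes, and 18 of its genes were above 0 in both libraries, 5 of them higher and 7 lower. At D0 the highest levels were those of Eng, a co-receptor of TGF-β that mesenchymal cells also carry, and of Ecscr. Eng had FPKM of 22.4 and 12.2, and Ecscr had 16.8 and 1.94. Egfl7 (FPKM of 3.83 and 1.56) and Clec14a (2.11 and 4.72) were at levels like those of Flt1. Ecscr also had the lowest ratio, 0.115 (0.0780 to 0.165), and S1pr1, with FPKM of 5.02 and 0.942, had a ratio of 0.188 (0.135 to 0.253). Both were lower at D7 as Flt4 was, and their part in its difference was not tested. Plvap had the highest, 19.5 (9.01 to 48.8), from FPKM of 0.177 to 3.46, and Cd93 had a ratio of 5.65 (4.24 to 7.75). Genes of this list therefore did not move one way, and their part in the values of the receptors was not tested.

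Of 6 lymphatic markers, 4 were above 0 in both libraries, and Mmrn1 and Ccl21a were listed at 0 in both. Prox1, the defining factor of lymphatic endothelium, had FPKM of 0.212 and 0.0415, about 35 and 6 fragments, a ratio of 0.196 (0.0693 to 0.484). Prox1 was lower at D7, as Flt4 was, at a far lower level than Flt4 at D0, and its part in that difference was not tested. Lyve1, which macrophages also carry, had FPKM of 0.230 and 0.813, a ratio of 3.53 (1.90 to 7.38). Pdpn, common in fibroblasts, had FPKM of 181 and 47.8, and Reln a ratio of 1.65 (0.809 to 3.43).

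Mural cells wrap vessels and are a known source of Angpt1. Of 13 mural markers, 12 were above 0 in both libraries, 2 were higher and 6 were lower, and their summed FPKM was 4194 at D0 and 764 at D7. Acta2, smooth muscle actin, which cultured preadipocytes also express, had FPKM of 2164 and 319, Tagln, of the same muscle-like cells, had 1523 and 308, and Cnn1 had the lowest ratio, 0.0969 (0.0908 to 0.103). Of the markers used for pericytes, Pdgfrb had FPKM of 114 and 38.9, a ratio of 0.340 (0.328 to 0.353), Cspg4 had 17.1 and 6.27, a ratio of 0.366 (0.340 to 0.395), and Higd1b was listed at 0 in both. Rgs5 and Kcnj8 went the other way, with ratios of 2.89 (2.05 to 4.13) and 2.22 (1.29 to 4.00) at FPKM of up to 1.65. Notch3, with FPKM of 6.15 and 11.8, had a ratio of 1.91 (1.77 to 2.07). Abcc9, with FPKM of 0.331 and 0.633, also had one of 1.91 (1.29 to 2.87). Over the whole mural list, 4 genes had a ratio above 1 and 8 had one below 1. Pericyte markers thus differed in both directions, and their part in the value of Angpt1 was not tested.

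Macrophage markers, read because macrophages can carry FLT1 and TEK, were higher at D7 in 10 of 11 genes, and their summed FPKM was 156 at D0 and 583 at D7. Csf1r had FPKM of 2.63 and 10.4, a ratio of 3.94 (3.37 to 4.61), and Mrc1 the highest ratio, 35.8 (27.8 to 46.2). Lyz2, the most abundant, had FPKM of 111 and 286, Emr1 had a ratio of 10.2 (8.196 to 12.8), and Cd14 one of 1.06 (0.829 to 1.34). The higher values of these markers moved with those of Angpt1, Tek, Vegfc, Figf and Kdr, and against that of Flt4, and their part in these differences was not tested.

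Of 10 markers of adipocyte precursors, all above 0 in both libraries, 3 were higher and 1 was lower at D7, with a median log2 ratio of -0.24. After the floor and division by the library median, 2 were higher and 4 lower, and 2 were lower with TPM, median or upper-quartile scaling. Thy1, the most abundant by the mean of both libraries, had FPKM of 657 and 308, and Cd248 FPKM of 213 and 107. Dlk1 had a ratio of 10.8 (8.88 to 13.1) and Cd34, which endothelial cells carry too, of 8.29 (6.61 to 10.4). In the adipocyte list Fabp4 was the most abundant (FPKM of 20.3 and 14391), Plin1 and Adipoq had the highest ratios on 2 and 5 fragments at D0, and Pparg and Cebpa the lowest, 33.5 (28.0 to 40.01) and 31.5 (28.9 to 34.5).

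Promoters were looked at for the FLT4 ligands, since Vegfc and Figf were both higher at D7. RefSeq windows (GRCm38.p6) were matched for 8 of the 10 genes, in 9 windows, and Angpt1 and Angpt2 had no entry. The 250 bases before the start of Vegfc (chr8:54077282-54077531, plus strand) held 71.6% G and C. Of the window of Figf, only the 106 bases that precede every annotated exon are printed (chrX:164373272-164373377, plus strand, 47.2% G and C). Capitals mark matches on either strand to the GC box GGGCGG and to the KLF motif CACCC. The printed matches do not overlap each other.
Vegfc: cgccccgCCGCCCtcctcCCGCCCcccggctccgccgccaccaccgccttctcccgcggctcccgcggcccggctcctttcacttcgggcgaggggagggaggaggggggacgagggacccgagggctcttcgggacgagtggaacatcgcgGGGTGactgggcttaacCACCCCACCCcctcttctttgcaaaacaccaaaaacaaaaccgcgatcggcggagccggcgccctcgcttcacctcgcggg
Figf: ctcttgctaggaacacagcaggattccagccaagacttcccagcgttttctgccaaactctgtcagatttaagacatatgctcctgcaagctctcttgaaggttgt

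Vegfc held 2 matches to GGGCGG and 3 to CACCC, and the shorter printed stretch of Figf held 0 of either. The full 250 bases before the start of Figf, which run into an annotated exon, held 1 match to CACCC and 0 to GGGCGG. Of all 32851 windows of 250 bases, 32.7% held GGGCGG and 52.0% held CACCC. The hypoxia response cores ACGTG (16.6% of all windows) and GCGTG (28.2%) were in neither printed sequence. The ERR element TCAAGGTCA (0.387% of windows) and the PPAR element of the direct-repeat kind (0.0335%) were in none of the 9 windows of the 10 genes. A match is a description of letters and says nothing of binding.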

How the data were processed

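RNA-Seq libraries of preadipocytes (D0) and differentiated adipocytes (D7) of brown fat were analysed, 1 for each stage. The authors removed low-quality, duplicate and rRNA reads, and used SOAP2 to align the others to mm10. For each gene and library they deposited a single FPKM value. The submitters' processing notes name Bowtie2 instead. Of 27324 rows, 3963 had no value, and 27 with a symbol in the form of a date were used for counts only.

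Ratios of D7 to D0 were computed from the deposited FPKM values without pseudocount or rescaling. Fragments were recovered from single-exon genes of at least 600 bp (length corrections of 179 bp at D0 and 182 bp at D7), and for other genes from the length of the named transcript in GENCODE M21. Intervals are exact Clopper-Pearson (ratios) and Poisson (levels) intervals. On simulated data for D7 against D0 (12432 genes), 99.5% of 200 changed genes were called and 95.0% of intervals held the true fold. The changed genes were given folds well past the threshold, and only counting error was simulated. These percentages therefore do not test calls near the threshold, and they leave out the spread between cultures. No test across replicates was possible.

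The 10 genes, the gene lists and the alternatives were chosen with earlier results of these data known. Besides the 10 genes, each list is represented by the 2 highest and 2 lowest ratios among genes of at least 20 fragments, by its most abundant gene and by preset markers. Genes named beyond this rule (Plau, Tagln, Egfl7, Clec14a, Pdgfrb, Cspg4, Notch3, Abcc9, Esrrb, genes listed at 0 and genes that overlap Angpt1 or Angpt2) were chosen after their values were seen. A gene that the rule names in the list of inhibitors is not reported here. Alternatives were a pseudocount (0.1 or 1), TPM, rescaling to the median, to the upper quartile or by a trimmed mean, a floor of 0.01 on FPKM before each library was divided by its median, sums of rows of one symbol, filters on mean FPKM or fragments, and a threshold of 4-fold. Promoter sequences are from RefSeq (GRCm38.p6) and coding sequences from GENCODE M21. No protein sequences were used beyond the translation of these transcripts. Computations ran in Python 3.11.15 with scipy 1.17.1 and numpy 2.4.6 for intervals, pandas 2.3.3 for tables and matplotlib 3.10.9 for figures.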

Additional observations from a re-analysis of the deposited data

How the results depend on the processing

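No paired analysis was possible because each stage has 1 library, and for the same reason no library could be left out. Flt4 was lower and Angpt1 and Vegfc were higher by at least 2-fold under every pseudocount and scaling tried. The number of the 10 genes higher at D7 was 5. It was 4, without Kdr, with a pseudocount of 0.1 and also among genes of mean FPKM of at least 1. It was 3 with a pseudocount of 1 (without Kdr and Tek) and 3 with the floor of 0.01 and the library median (without Figf and Kdr). At a threshold of 4-fold it was 1 (Angpt1). Over all genes, the percentage higher was 11.3 and 6.56 with pseudocounts of 0.1 and 1, 12.1 with the floor and library median, and 8.08 at 4-fold. Among genes of mean FPKM of at least 1, 14.6% were higher and 11.4% lower. The percentage of all genes lower was 13.2, and 7.65 and 4.37 with these pseudocounts, 16.4 with the floor and library median and 3.86 at 4-fold. With pseudocounts or the floor, genes listed at 0 also count among all genes. The floor with the library median lowers every log2 ratio above the floor by 0.35, and the share of lower genes among those called was 57.5% with it and 41.7% without. Relative to that shift, Vegfa (0.05) and Angpt2 (0.07) were near 0 on the log2 scale. The other scalings moved log2 ratios by at most 0.05. Among VEGF ligand fragments not divided by length, the share of Vegfa was 16.8% at D0 and 9.93% at D7. These fragments were themselves recovered through the 975-base named transcript of Vegfa. Its longest transcript, of 3451 bases, gave 3565 and 4002 fragments instead of 867 and 971. This share therefore also depends on the assumed length. The median of the 4 receptors changed sign, to -0.30, when only genes of mean FPKM of at least 1 were kept. None of the 10 genes changed direction in any of these settings. Depth limits Kdr, Tek and Angpt1 at D0 and Flt4 at D7 most, which rest on 28 to 50 fragments.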
